A study of Mus musculus with 9 samples.

Results

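The tetraspanins are the gene family described here across 3 subsets of mouse monocytes that were grown in vitro. The members are the protein coding genes of the deposited count table named Tspan with a number, together with Cd9, Cd37, Cd53, Cd63, Cd81, Cd82 and Cd151. The rule found 27 members among 46517 genes, and 22 of them had enough counts to be tested. The rule goes by gene name and annotation only. A member that is near 0 in one subset can pass the filter on low counts only through the others, so counts over the 22 tested members describe them and are not evidence that the family stands apart.

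The libraries are 3 of conventional monocytes (cMo), 3 of intermediate monocytes (intMo) and 3 of patrolling monocytes (pMo), numbered 0, 1 and 2 in each subset. These are the subsets of the sample labels, while the design text of the series lists the conventional subset again where patrolling monocytes would stand. All 9 come from primary cells of wild-type C57BL/6 animals grown in vitro, and bone marrow cultures on OP9-DLL1 are named as the setting of the patrolling cells in the title of the series. OP9-DLL1 is a stromal feeder line made to display Delta-like 1, a ligand of Notch. The sources used here do not give the age of the animals, the markers by which the subsets were sorted, or whether the libraries of a subset are separate cultures or animals, so p-values measure only the spread between these libraries. The comparisons ask in which members the subsets differ.

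Tetraspanins are small proteins that cross the membrane several times and gather integrins, immunoglobulin superfamily proteins and proteases into patches of the membrane. Cd37, Cd53, Cd82 and Tspan32 are known from leukocytes, Cd9, Cd63 and Cd81 are the usual surface markers of extracellular vesicles, and members of the TspanC8 group carry the protease ADAM10 to the cell surface. ADAM10 makes the first cut of Notch after it binds a ligand such as Delta-like 1.

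Levels are given in CPM, the counts of a gene scaled to a common library size with TMM, and a gene was called at an adjusted p under 0.05 over all 14059 genes tested (edgeR quasi-likelihood test, Benjamini-Hochberg adjustment). The 9 libraries held between 18455116 and 29985684 estimated counts. The subset labels were checked against marker genes, with Ly6c2, a marker of conventional monocytes, at 1190 ± 189 CPM in cMo and 53.2 ± 38.5 CPM in pMo (mean ± SD, n = 3 throughout), and Nr4a1, a nuclear receptor on which patrolling monocytes depend, at 232 ± 29.7 and 4490 ± 534 CPM. Spn, which encodes CD43 of patrolling monocytes, was lower in intMo (99.2 ± 37.5 CPM) than in cMo (277 ± 52.9 CPM). Library 0 stood apart within each subset, since log2 CPM over all genes correlated at 0.986 to 0.99 between libraries 1 and 2 and at 0.951 to 0.975 with library 0.

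Genes of other cells also differed between the subsets. The summed level of 12 stromal genes, among them collagens, was 9.11 to 18.9 CPM in cMo, 202 to 666 CPM in intMo and 226 to 446 CPM in pMo. Of the 10 stromal genes tested, 9 were called higher in intMo and 9 in pMo against cMo, and 0 were called between pMo and intMo by edgeR (0 also at an unadjusted p under 0.05 and 0 by DESeq2). The most abundant was Cxcl12, a chemokine of marrow stroma, at 2.81 ± 0.74, 93.9 ± 38.6 and 79.1 ± 13.4 CPM in cMo, intMo and pMo, while Dcn was at 0 in all 9 libraries and Lum at 0 in cMo. The highest stromal sum of intMo and of pMo lay in library 0 of each. In the same 2 libraries 11 of the 22 tested members were highest within their subset, namely Cd63, Cd81, Cd151, Tspan3, Tspan4, Tspan6, Tspan9, Tspan13, Tspan15, Tspan17 and Tspan33. How many of all genes did the same was not counted, so the 11 cannot be read as a trait of the family. Deviations from the subset mean correlated at 0.588 between these 2 libraries over all tested genes. The part of stromal RNA in the levels of these members was not tested, and in bulk RNA fewer cells of a type and less RNA per cell cannot be told apart.

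Genes of granulocytes, mast cells and basophils summed to 2218 to 12300 CPM in cMo, 477 to 4039 CPM in intMo and 559 to 2530 CPM in pMo, highest in library 0 of cMo and lowest in library 0 of intMo and of pMo. In libraries 1 and 2 the order differed, with sums of 2218 and 2489 CPM in cMo, 4039 and 3763 CPM in intMo and 2460 and 2530 CPM in pMo. Of 13 tested, 5 were lower in intMo and 5 in pMo against cMo, in both cases Elane, Mpo, Prtn3, Ctsg and Mcpt8. Ngp, Ltf, Camp, S100a8 and S100a9 were not called against cMo in either. The most abundant was S100a9, abundant in the cytosol of neutrophils (1170 ± 1255, 920 ± 710.5 and 561 ± 375 CPM). Platelet and megakaryocyte genes summed to 17.7 to 51.4, 26.9 to 74.0 and 21.4 to 48.0 CPM in cMo, intMo and pMo, with 2 of 6 tested higher in intMo and 2 in pMo against cMo. In both cases these were Vwf and Gp6, and Gp6 had 0 counts in cMo and 14 in intMo. Pf4, Ppbp, Itga2b and Gp1ba were not called against cMo. The most abundant, the platelet chemokine Pf4, was at 30.4 ± 18.3, 30.9 ± 23.3 and 6.84 ± 6.67 CPM. Lymphoid genes summed to 18.1 to 24.0, 28.1 to 47.4 and 25.8 to 42.9 CPM, with 2 of 6 tested higher in intMo and 1 in pMo against cMo. The most abundant was Cd79b, a chain of the B cell receptor (17.8 ± 2.30, 29.4 ± 11.8 and 24.2 ± 8.31 CPM). Of 11 genes of monocyte identity, 5 were higher and 4 lower in intMo, and 7 higher and 3 lower in pMo, against cMo. Of all tested genes, 24.4% were called in intMo and 33.1% in pMo against cMo. The part of these other cells in the results below was not tested either.

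**Figure D1:**
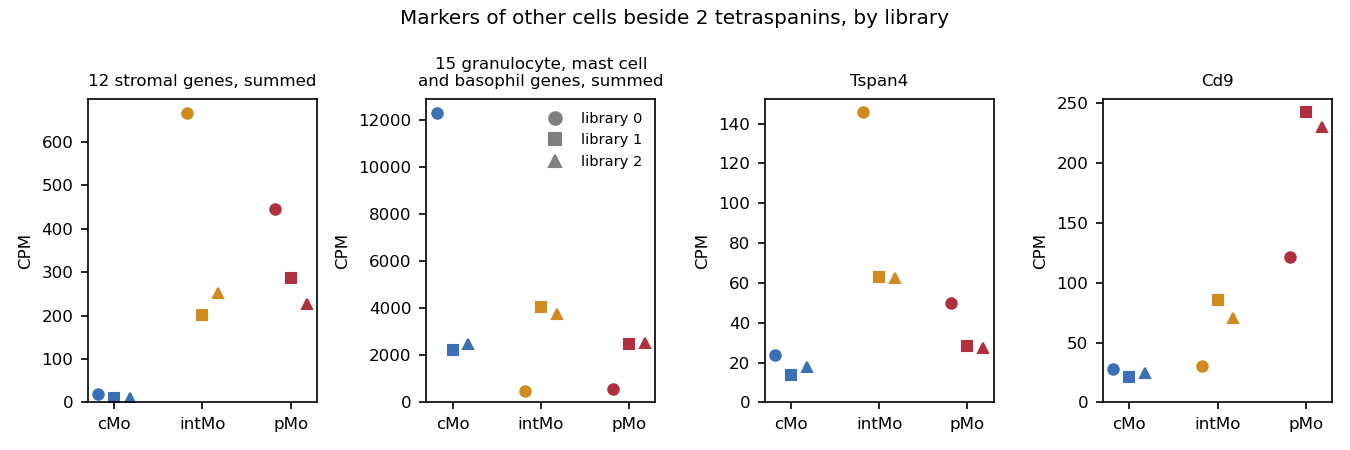
Summed CPM of the stromal genes and of the granulocyte, mast cell and basophil genes, and CPM of Tspan4 and Cd9, in each of the 9 libraries (linear axes from 0, colour for the subset and symbol for the library number). Library 0 of intMo had the highest stromal sum (666 CPM) and the highest Tspan4 (146 CPM), while its Cd9 (30.1 CPM) was the lowest of the 3 intMo libraries.

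The family as a whole took 941 to 1113 CPM per library in cMo, 1501 to 1895 CPM in intMo and 1865 to 2088 CPM in pMo, so the cMo libraries lay below all others while those of intMo and pMo overlapped. In intMo against cMo, 11 members rose, 3 fell and 8 were not called, where 24.4% of all tested genes were called, 14% higher and 10.4% lower. In pMo against cMo, 12 rose, 3 fell and 7 were not called, beside 33.1% of all genes called, 17.2% higher and 15.9% lower. In pMo against intMo, 2 rose, 1 fell and 19 were not called, beside 4.99% of all genes called, 3.29% higher and 1.69% lower. With the library number as a block, 2 members were called higher and 2 lower in pMo against intMo, beside 5.95% of all genes called. With libraries 1 and 2 alone 7 were called higher and 3 lower, beside 17.1% of all genes. The libraries of the compared subsets did not overlap in 16 of 22 members for intMo against cMo, 17 for pMo against cMo and 9 for pMo against intMo, where 41.3%, 49.5% and 27.7% of all tested genes had no overlap. The first 2 of these comparisons share the cMo libraries and each subset enters 2 of the 3, so they are not independent of each other. The F test over all subsets called 16 members, where 33% of all tested genes were called. Median log2 changes of the tested members were 0.58 in intMo against cMo, 0.88 in pMo against cMo and 0.20 in pMo against intMo, and those of all tested genes were -0.01, 0.03 and -0.02.

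**Figure D2:**
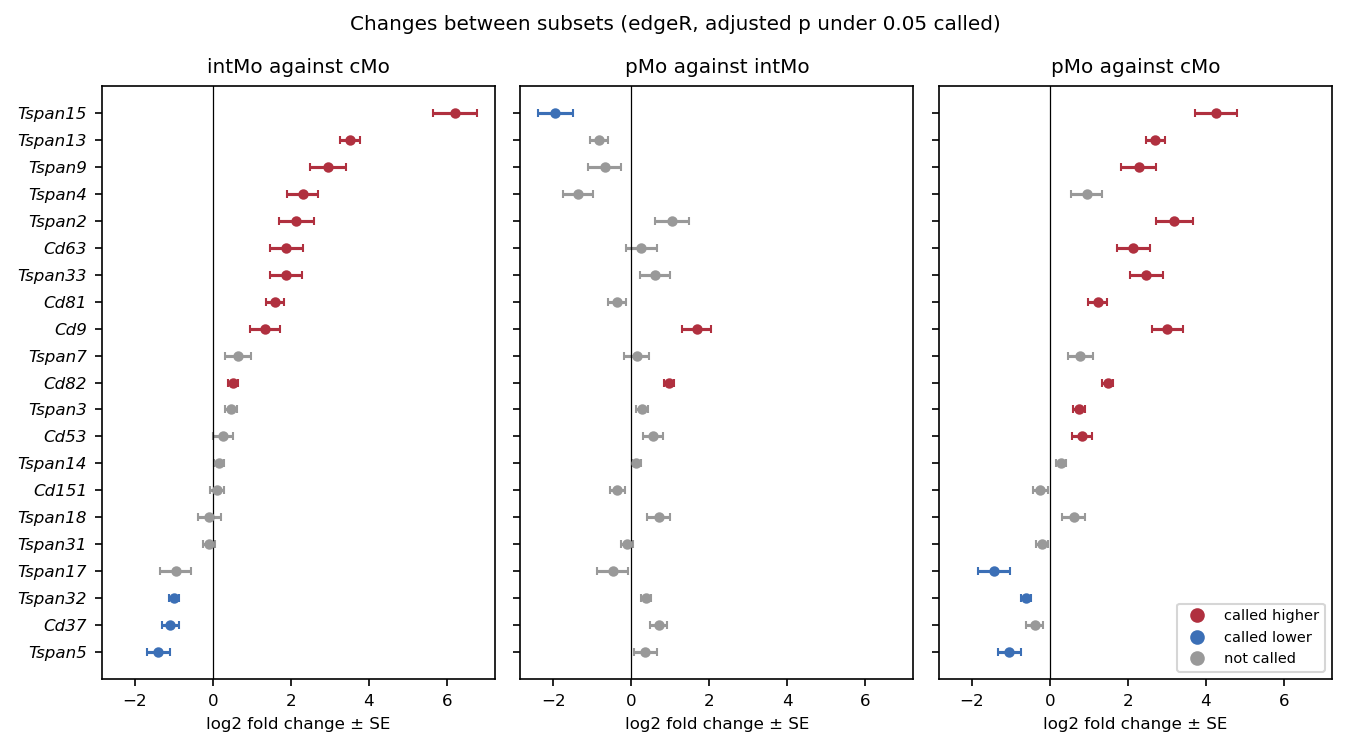
Log2 fold change ± SE of 21 tested tetraspanins in the 3 comparisons (edgeR, 3 libraries per subset), ordered by intMo against cMo and coloured by the call. Tspan6, which was at 0 in cMo, is left out because its fitted change depends on the prior count, and only Cd9, Cd82 and Tspan15 were called between pMo and intMo.

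Among the vesicle markers Cd9, Cd63 and Cd81, all 3 rose in both intMo and pMo against cMo, and Cd9 alone was also called higher in pMo than in intMo. Cd9, which works in adhesion and in cell fusion (ENSMUSG00000030342.8, chromosome 6, 125460266 to 125494791 in GRCm38), had 27.8, 20.9 and 24.9 CPM in cMo libraries 0, 1 and 2, in that order. It had 30.1, 85.4 and 70.6 CPM in intMo and 122, 242 and 230 CPM in pMo. The subsets did not overlap, although library 0 of intMo lay only just above the highest cMo library and library 0 of pMo lay far below the other pMo libraries. Its log2 change was 3.01 ± 0.40 (SE) in pMo against cMo (edgeR adjusted p = 0.000804), 1.34 ± 0.38 in intMo against cMo (0.0326) and 1.67 ± 0.38 in pMo against intMo (0.0394). The call of intMo against cMo ended on leaving out cMo 0, cMo 1, cMo 2, intMo 1 or intMo 2 in turn (edgeR adjusted p up to 0.0965), and that of pMo against intMo ended without cMo 1, cMo 2, intMo 1, intMo 2, pMo 1 or pMo 2 (up to 0.154). Without the filter on low counts both were lost (edgeR adjusted p = 0.0532 and 0.063), and pMo against intMo also when only these 2 subsets were fitted (0.0721).

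The bases before the start of Cd9 are shown because Notch signalling acts through RBPJ and patrolling monocytes depend on Nr4a1, so that their motifs could be looked for in the same window. The run is the part of the RefSeq promoter window that lies before any annotated exon on its strand (GRCm38.p6, minus strand, chr6:125494792-125495010, written 5′ to 3′), and the capitals mark the only match among the 4 motifs searched, that of RBPJ.
Cd9: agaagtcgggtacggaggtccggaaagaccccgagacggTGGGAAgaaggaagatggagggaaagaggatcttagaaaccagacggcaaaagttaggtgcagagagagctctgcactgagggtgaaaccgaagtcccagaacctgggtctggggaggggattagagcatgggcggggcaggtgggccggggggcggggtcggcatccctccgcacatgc
The motifs were TGGGAA for RBPJ, AAAGGTCA for the NR4A family, GAGGAA for PU.1 and TGANTCA for AP-1, on both strands of the 250 bases before each start. The motifs of RBPJ and PU.1 share the letters GGAA but cannot both match at the same GGAA on a strand. A promoter window was found for 26 of the 27 members, 36 windows in all. The RBPJ motif was in 11 of the 36 windows and in 21.6% of all 32851 windows, the PU.1 motif in 10 (23.3% of all), the AP-1 motif in 1 (6.7%) and the NR4A motif in 0 (1.3%). These are matches of letters and not measured binding.

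Cd63, a membrane protein of late endosomes, lysosomes and granules (ENSMUSG00000025351.12, chromosome 10, 128900989 to 128912822), had 69.1, 26.4 and 36.0 CPM in cMo libraries 0, 1 and 2. In intMo it had 260, 121 and 106 CPM, and in pMo 199, 186 and 197 CPM. Every intMo and pMo library lay above every cMo library, and the pMo libraries lay close together inside the range of intMo. The log2 change was 1.89 ± 0.41 in intMo (edgeR adjusted p = 0.0116) and 2.15 ± 0.42 in pMo (0.00476) against cMo, and 0.26 ± 0.40 in pMo against intMo was not called (0.818). The last change was 0.77 without intMo 0 (edgeR adjusted p = 0.261) and 0.75 with libraries 1 and 2 alone, where it was called (0.0117). Cd81, which joins the B cell co-receptor in lymphocytes (ENSMUSG00000037706.15, chromosome 7, 143052739 to 143067934), had 46.5, 33.6 and 43.5 CPM in cMo, 166, 108 and 98.1 CPM in intMo and 118, 85.9 and 85.1 CPM in pMo. It too was lowest in all cMo libraries, with overlap between intMo and pMo. Its log2 change was 1.59 ± 0.23 in intMo (edgeR adjusted p = 0.00175) and 1.22 ± 0.23 in pMo (0.00397) against cMo. Without intMo 0, the changes in intMo against cMo were 1.39 for Cd63 and 1.33 for Cd81 and both calls remained (edgeR adjusted p = 0.0224 and 0.00231).

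The leukocyte tetraspanins did not move together. Cd82, which binds integrins and limits cell migration (ENSMUSG00000027215.12, chromosome 2, 93419111 to 93463140), had 81.7, 68.5 and 61.8 CPM in cMo, 105, 93.0 and 106 CPM in intMo and 200, 187 and 206 CPM in pMo. The subsets did not overlap and the libraries of each lay close together. Cd82 rose by a log2 of 1.48 ± 0.13 in pMo against cMo (edgeR adjusted p = 0.000105), 0.96 ± 0.13 in pMo against intMo (0.00464) and 0.52 ± 0.13 in intMo against cMo (0.0204). The last of these calls ended without cMo 1, cMo 2, intMo 0 or intMo 2 (edgeR adjusted p up to 0.0678) and when only these 2 subsets were fitted (0.0544).

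Cd53, a tetraspanin of nearly all leukocytes (ENSMUSG00000040747.9, chromosome 3, 106759921 to 106790149), had 226, 300 and 417 CPM in cMo, 312, 472 and 343 CPM in intMo and 434, 631 and 597 CPM in pMo. The lowest pMo library lay above the highest cMo library, and intMo overlapped both. It rose by a log2 of 0.82 ± 0.25 in pMo against cMo (edgeR adjusted p = 0.0345), a call that ended without cMo 0, cMo 1, intMo 2, pMo 1 or pMo 2 (up to 0.109), and the F test over all subsets did not call it (edgeR adjusted p = 0.0677).

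Cd37, which restrains immune cell activation (ENSMUSG00000030798.12, chromosome 7, 45233632 to 45239115), had 130, 86.5 and 77.3 CPM in cMo, 38.3, 47.3 and 52.4 CPM in intMo and 84.8, 71.6 and 67.7 CPM in pMo. All intMo libraries lay below all others, while cMo and pMo overlapped. Cd37 fell by 1.09 ± 0.21 on the log2 scale in intMo against cMo (edgeR adjusted p = 0.00653), while the log2 change of 0.70 ± 0.21 in pMo against intMo was not called (0.1). That change was called by DESeq2 (adjusted p = 0.0355), when only these 2 subsets were fitted (edgeR adjusted p = 0.0442), without cMo 0 (0.0256) and with libraries 1 and 2 alone (0.0262). Tspan32, a tetraspanin of blood cells (ENSMUSG00000000244.15, chromosome 7, 143005046 to 143019644), had 52.0, 46.2 and 48.1 CPM in cMo, 23.9, 27.6 and 22.2 CPM in intMo and 31.4, 31.6 and 32.5 CPM in pMo. The 3 subsets did not overlap, and intMo was again lowest. Tspan32 fell by 0.99 ± 0.12 on the log2 scale in intMo (edgeR adjusted p = 0.000876) and by 0.62 ± 0.12 in pMo (0.00531) against cMo, and 0.38 ± 0.12 in pMo against intMo was not called (0.134).

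Of the 6 TspanC8 members, Tspan10 had at most 2 counts in any library and 5 were tested. In intMo against cMo 2 rose and 1 fell, in pMo against cMo 2 rose and 2 fell, and in pMo against intMo 1 fell. Of all tested genes, 24.4%, 33.1% and 4.99% were called in these comparisons. Tspan15, which sends ADAM10 to cadherins (ENSMUSG00000037031.9, chromosome 10, 62185396 to 62231251), had 0.86, 0.42 and 0.18 CPM in cMo, 54.4, 28.0 and 27.4 CPM in intMo and 13.6, 7.04 and 7.82 CPM in pMo. It was close to absent from cMo, with 41 counts over the 3 libraries, highest in intMo and between them in pMo, with no overlap. The log2 change was 6.21 ± 0.56 in intMo (edgeR adjusted p = 0.000202) and 4.27 ± 0.54 in pMo (0.00059) against cMo, the largest of the members with counts in every subset. Both were larger without cMo 0, at 6.89 and 4.95. In pMo against intMo it fell by 1.95 ± 0.44 (edgeR adjusted p = 0.0386), a call that ended without cMo 1, intMo 0, intMo 1, intMo 2, pMo 1 or pMo 2 in turn (up to 0.175).

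The window before the start of Tspan15 is shown for the same reason as that of Cd9, since Cd9 and Tspan15 had larger log2 changes against cMo than Cd82, the other member called in all 3 comparisons. It is again the part before any annotated exon on its strand (GRCm38.p6, minus strand, chr10:62231252-62231468, 5′ to 3′), and it holds none of the 4 motifs. The single AP-1 match among the windows of the family lies nearer to this start, outside the bases shown.
Tspan15: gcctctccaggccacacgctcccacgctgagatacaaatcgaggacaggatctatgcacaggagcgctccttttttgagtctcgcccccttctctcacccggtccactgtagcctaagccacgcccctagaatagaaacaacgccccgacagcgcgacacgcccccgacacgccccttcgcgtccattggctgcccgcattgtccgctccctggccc

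Tspan33, another ADAM10 partner (ENSMUSG00000001763.13, chromosome 6, 29694222 to 29718559), had 1.33, 4.78 and 3.85 CPM in cMo, 15.7, 10.5 and 10.4 CPM in intMo and 22.7, 17.4 and 15.5 CPM in pMo. Every intMo and pMo library lay above every cMo library. It rose by a log2 of 1.87 ± 0.41 in intMo (edgeR adjusted p = 0.011) and 2.48 ± 0.42 in pMo (0.0022) against cMo, with 1.28 in intMo against cMo when libraries 1 and 2 were fitted alone. The change of 0.61 ± 0.39 in pMo against intMo was not called (edgeR adjusted p = 0.469), but it was with libraries 1 and 2 alone (0.0218). Tspan5, known to favour the cut of Notch by ADAM10 (ENSMUSG00000028152.9, chromosome 3, 138742195 to 138907905), went the other way, with 31.4, 33.1 and 38.3 CPM in cMo, 6.81, 16.6 and 15.4 CPM in intMo and 14.1, 18.1 and 17.7 CPM in pMo. All cMo libraries lay above all others, and intMo 0 was the lowest. Tspan5 fell by 1.40 ± 0.29 on the log2 scale in intMo (edgeR adjusted p = 0.00948) and by 1.04 ± 0.29 in pMo (0.023) against cMo, where the call in pMo ended without cMo 2, pMo 0, pMo 1 or pMo 2 in turn (up to 0.0799).

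Tspan17 and Tspan14 complete the group. Tspan17 was at 7.54 ± 3.27, 3.90 ± 0.89 and 2.79 ± 0.997 CPM in cMo, intMo and pMo and was called lower in pMo against cMo (log2 -1.43 ± 0.40, edgeR adjusted p = 0.0226), although library 0 of cMo (3.85 CPM) lay below library 0 of pMo (3.94 CPM). That call ended without cMo 1, cMo 2, pMo 1 or pMo 2 (up to 0.0864), and the log2 change was -2.07 with libraries 1 and 2 alone. In intMo against cMo it was not called (log2 -0.95 ± 0.39, edgeR adjusted p = 0.11), but it was without cMo 0 (0.0264) and with libraries 1 and 2 alone (0.000826). Tspan14, which like Tspan5 favours Notch cleavage, was the most abundant of the group and was not called, at 139.5 ± 16.8, 155.5 ± 6.32 and 170 ± 5.17 CPM (log2 0.16 ± 0.12 and 0.29 ± 0.12 in intMo and pMo against cMo, edgeR adjusted p = 0.374 and 0.0959). The summed CPM of the group was 160 to 208 in cMo, 216 to 230 in intMo and 214 to 220 in pMo.

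Of the members outside these groups, Tspan13 had the highest level in intMo. Tspan13 (ENSMUSG00000020577.14, chromosome 12, 36014557 to 36042500) had 19.2, 28.3 and 33.6 CPM in cMo, 400, 276 and 255 CPM in intMo and 197, 165 and 167 CPM in pMo. The subsets did not overlap and intMo was highest. It rose by a log2 of 3.52 ± 0.26 in intMo (edgeR adjusted p = 5.53e-05) and 2.70 ± 0.25 in pMo (0.000109) against cMo. The log2 change of -0.82 ± 0.23 in pMo against intMo was not called (edgeR adjusted p = 0.0851), but it was by DESeq2 (adjusted p = 0.0195), without cMo 0 (edgeR adjusted p = 0.0328) and with libraries 1 and 2 alone (0.00578).

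Tspan4, a tetraspanin of migrasomes, the vesicles that moving cells leave behind (ENSMUSG00000025511.13, chromosome 7, 141475240 to 141493427), had 23.6, 13.7 and 17.6 CPM in cMo, 146, 62.9 and 62.5 CPM in intMo and 50.1, 28.1 and 27.1 CPM in pMo. It had the same order as Tspan13 and Tspan15, with intMo highest, and again no overlap. Tspan4 rose by a log2 of 2.30 ± 0.40 in intMo against cMo (edgeR adjusted p = 0.00429), and by 1.79 without intMo 0 (0.00487). The changes of 0.94 ± 0.39 in pMo against cMo and -1.36 ± 0.39 in pMo against intMo were not called (edgeR adjusted p = 0.0946 and 0.0891). Both were called with libraries 1 and 2 alone (log2 0.83 and -1.18, edgeR adjusted p = 0.00215 and 0.000837). The change in pMo against cMo was also called without intMo 0 (edgeR adjusted p = 0.0255) and when only these 2 subsets were fitted (0.0459), and that in pMo against intMo with the library number as a block (log2 -1.31, edgeR adjusted p = 0.00633) and by DESeq2 (adjusted p = 0.00894). Over 13.4% of its merged exon length Tspan4 overlaps Chid1 on the opposite strand, whose level was 48.5, 51.1 and 38.8 CPM on average in cMo, intMo and pMo.

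Tspan2, known from myelin-forming cells and neurons (ENSMUSG00000027858.12, chromosome 3, 102734529 to 102801513), had 19.8, 5.59 and 6.08 CPM in cMo, 37.0, 55.7 and 45.8 CPM in intMo and 78.3, 103 and 106 CPM in pMo. The subsets stood in the order cMo, intMo and pMo without overlap, and library 0 of cMo lay above the other cMo libraries. It rose by a log2 of 2.14 ± 0.45 in intMo (edgeR adjusted p = 0.00997) and 3.19 ± 0.47 in pMo (0.00127) against cMo, and the changes were 2.98 and 4.03 without cMo 0. The change of 1.05 ± 0.43 in pMo against intMo was not called (edgeR adjusted p = 0.233), but it was without cMo 0 (0.0108), with libraries 1 and 2 alone (0.00104) and when only these 2 subsets were fitted (0.0228). Tspan3 (ENSMUSG00000032324.10, chromosome 9, 56131725 to 56165477) had 24.7, 21.5 and 23.0 CPM in cMo, 38.4, 31.6 and 26.3 CPM in intMo and 40.5, 38.5 and 36.7 CPM in pMo. All cMo libraries lay below all others, and it rose by a log2 of 0.74 ± 0.15 in pMo against cMo (edgeR adjusted p = 0.00624), while 0.48 ± 0.15 in intMo against cMo was not called (0.0511). That change was called by DESeq2 (adjusted p = 0.0317), with a filter at 1 CPM (edgeR adjusted p = 0.0381) and without intMo 2 (0.0301).

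**Figure D3:**
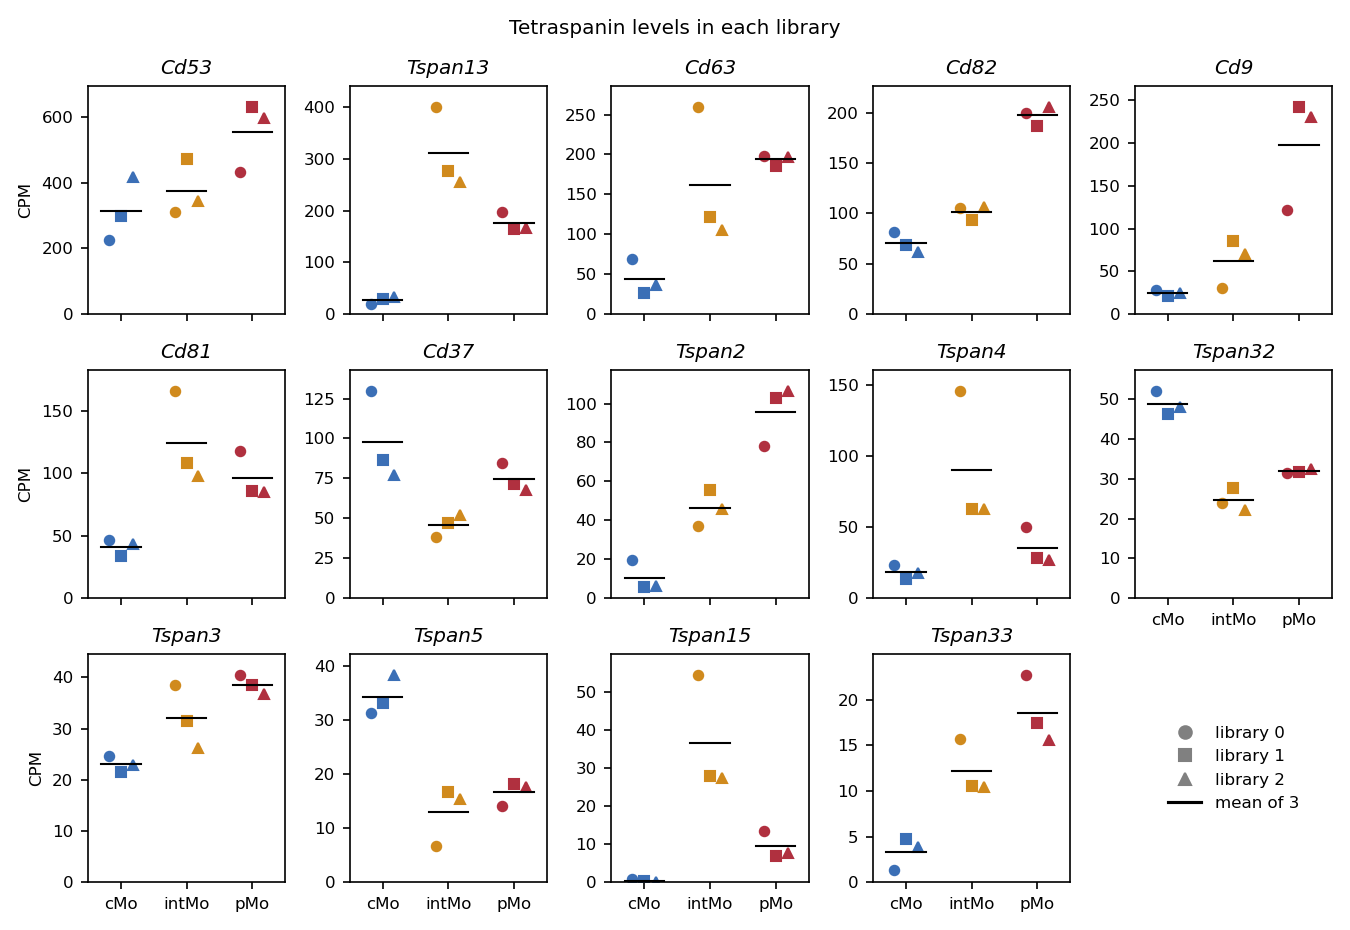
CPM in each library of the 14 called tetraspanins with the highest mean level, on linear axes from 0 (symbols for library numbers, black line for the mean of 3). Cd9, Cd82 and Tspan2 stood in the order cMo, intMo and pMo, Tspan4, Tspan13 and Tspan15 were highest in intMo, and Cd37 and Tspan32 were lowest in intMo, each without overlap between intMo and the others.

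Tspan9 and Tspan6 were called at low levels. Tspan9, known from platelets, was at 0.92 ± 0.48, 7.20 ± 1.88 and 4.502 ± 2.08 CPM in cMo, intMo and pMo and rose in both against cMo (log2 2.95 ± 0.47 and 2.28 ± 0.46, edgeR adjusted p = 0.0024 and 0.00531), with 1.54 in pMo when libraries 1 and 2 were fitted alone. Tspan6 had 0 counts in cMo, 27 in intMo and 26 in pMo, which puts it at least 10.45-fold higher in intMo and at least 9.61-fold higher in pMo (floor of 3 counts over the subset, which covers counting error only, and edgeR adjusted p = 0.00686 and 0.00546).

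Cd151, Tspan7, Tspan14, Tspan18 and Tspan31 were called in none of the comparisons by edgeR with all 9 libraries. With libraries 1 and 2 alone, Tspan18 was called higher in pMo against cMo and against intMo (edgeR adjusted p = 0.0147 and 0.0066) and Cd151 lower in pMo against cMo (0.0376). At an unadjusted p under 0.05, Tspan7 and Tspan14 passed in pMo against cMo and Tspan18 in pMo against intMo. Cd151, a partner of laminin-binding integrins, was at 19.4 ± 2.08, 20.96 ± 4.995 and 16.4 ± 1.82 CPM in cMo, intMo and pMo. Tspan31 was at 69.95 ± 11.7, 65.4 ± 7.79 and 60.7 ± 3.74 CPM, Tspan18 at 8.16 ± 2.61, 7.67 ± 1.04 and 12.5 ± 3.39 CPM, and Tspan7 at 1.07 ± 0.27, 1.67 ± 0.31 and 1.84 ± 0.31 CPM. Tspan31 shares 29.2% of its merged exons with Cdk4 on the opposite strand, which fell from 202 to 110 CPM in intMo (edgeR adjusted p = 0.00842) and to 79.5 CPM in pMo (0.000802). As the strand setting of the counting is not given, the division of reads between such pairs is uncertain. The 5 members not tested with all 9 libraries were Tspan1, Tspan8, Tspan10, Tspan11 and Tspan12, of which Tspan12 had the highest count in a library, 27 in cMo 1.

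Per kilobase of merged exons, Cd53 had the highest level of the family in each subset, at 180, 216 and 318 CPM per kilobase in cMo, intMo and pMo, which was 44.25%, 31.8% and 38.8% of the family's summed level per kilobase. In cMo it was followed by Tspan14 (52.65), Tspan31 (31.9) and Cd37 (27.8 CPM per kilobase). In intMo Tspan13 came next (125), then Tspan14 (58.7) and Cd63 (44.1). In pMo Cd9 came next (96.9), then Tspan13 (71.1), Cd82 (65.8) and Tspan14 (64.2). The order below Cd53 depended on the length used. With the longest coding transcript, which is much shorter than the merged exons of Cd63, Cd63 had 146 CPM per kilobase in intMo and 175 in pMo, where it came second ahead of Cd9 (161).

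**Figure D4:**
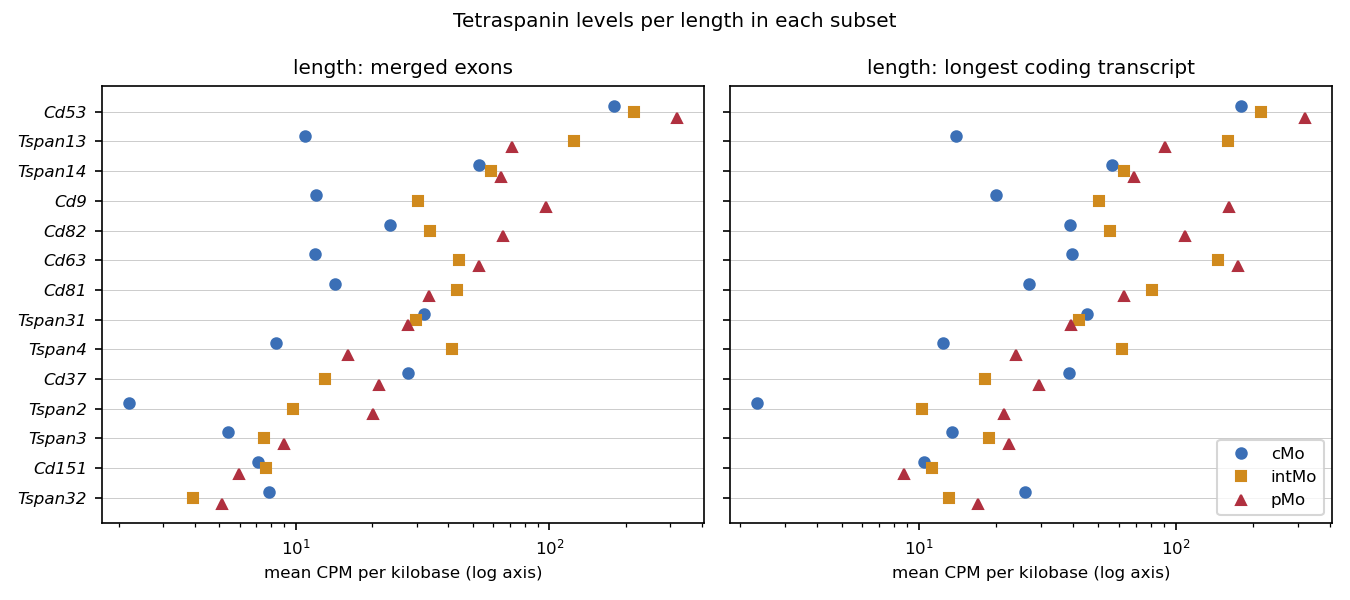
Mean CPM per kilobase (log axis) of the 14 members with the highest level, by subset (circles cMo, squares intMo, triangles pMo), with the length taken from merged exons on the left and from the longest coding transcript on the right. Cd53 was highest in every subset under both lengths, and Cd9 in pMo was at 96.9 and 161 CPM per kilobase under the first and the second.

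Some members lie near each other on a chromosome. Tspan32 and Cd81 are 33.1 kb apart on chromosome 7, and the former fell while the latter rose in both intMo and pMo against cMo. Cd151 and Tspan4 are 3.77 kb apart on the same chromosome, and with all 9 libraries Tspan4 was called and Cd151 was not. Tspan11 and Tspan9 are 7.42 kb apart on chromosome 6, where Tspan11 had 0, 7 and 8 counts in cMo, intMo and pMo. Tspan18 and Cd82 are 84.6 kb apart on chromosome 2, and with all 9 libraries Cd82 was called and Tspan18 was not.

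Among surface proteins known as tetraspanin partners, 17 of 20 listed were tested. In intMo against cMo 9 rose and 1 fell (median log2 0.66, all genes -0.01), beside 24.4% of all genes called. In pMo against cMo 12 rose and 2 fell (median 1.74, all genes 0.03), beside 33.1%. In pMo against intMo 3 rose (median 0.52, all genes -0.02), beside 4.99%, and DESeq2 called 6, beside 10.3%. The largest changes were in Cd4 (0.39 ± 0.28, 14.6 ± 15.4 and 3.27 ± 2.65 CPM in cMo, intMo and pMo), in Cd36, a fatty acid receptor that binds Cd9 (1.76 ± 1.502, 8.11 ± 1.78 and 56.7 ± 2.68 CPM), and in the growth factor Hbegf. Hbegf had 3 counts in cMo, 37 in intMo and 64 in pMo, a ratio to cMo of 14.3 in intMo (exact 95% counting interval 4.53 to 72.6) and 23.7 in pMo (7.74 to 118). The most abundant partner was Cd74, the invariant chain of MHC class II, at 369.5 ± 254, 4112 ± 2859 and 2312 ± 1786 CPM.

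The list of ADAM protease and Notch genes held 13 genes, among them Adam17 and Rhbdf2. In intMo against cMo 3 rose (median log2 -0.04), beside 24.4% of all genes called in that comparison. In pMo against cMo 5 rose and 1 fell (median 0.15), beside 33.1%. In pMo against intMo 1 fell (median 0.19), beside 4.99%. Adam17 and Rhbdf2 were among those that rose in pMo against cMo (log2 0.67 ± 0.21 and 0.54 ± 0.15, edgeR adjusted p = 0.0347 and 0.0206). The F test over all subsets did not call Adam17 (edgeR adjusted p = 0.0618) and called Rhbdf2 close to the threshold (0.0469). Adam10 itself was not called, at 184 ± 18.7, 154 ± 15.2 and 164.5 ± 22.9 CPM (log2 -0.25 ± 0.15 and -0.16 ± 0.15 in intMo and pMo against cMo, edgeR adjusted p = 0.241 and 0.429). The Notch targets Hes1 (0.84 ± 0.53, 37.6 ± 15.01 and 38.0 ± 13.9 CPM), Nrarp (0.54 ± 0.48, 17.3 ± 13.3 and 42.3 ± 2.52 CPM) and Dtx1 (0.48 ± 0.21, 3.59 ± 0.98 and 6.62 ± 7.45 CPM) had the largest changes and rose in both intMo and pMo against cMo. The most abundant gene, the receptor Notch2, was not called (351 ± 112, 244 ± 53.8 and 373 ± 75.3 CPM). Notch1, named after its values were seen, was the gene that fell, from 109 ± 36.2 CPM in cMo and 77.7 ± 22.0 CPM in intMo to 31.2 ± 4.15 CPM in pMo (log2 -1.81 ± 0.29 against cMo and -1.32 ± 0.29 against intMo, edgeR adjusted p = 0.00186 and 0.0331).

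Of 19 genes of vesicle formation and endosomal sorting, 2 rose and 1 fell in intMo against cMo, 1 rose and 1 fell in pMo against cMo, and 0 of 19 were called in pMo against intMo by edgeR (0 also at an unadjusted p under 0.05 and 0 by DESeq2), with medians of -0.07, -0.03 and 0.03. Of all tested genes, edgeR called 24.4%, 33.1% and 4.99% in the same comparisons. Those called were Sdcbp, the adaptor syntenin that binds Cd63 (314 ± 62.5, 569 ± 60.8 and 455 ± 75.2 CPM, log2 0.86 ± 0.18 in intMo against cMo, edgeR adjusted p = 0.0103), Rab27b, a GTPase of vesicle release (0.26 ± 0.16, 1.15 ± 0.09 and 1.39 ± 0.32 CPM, higher in both), and the membrane scaffold Flot2 (123 ± 34.7, 67.4 ± 0.57 and 52.2 ± 3.64 CPM, lower in both). The lysosomal membrane protein Lamp1, the most abundant, was not called (1083 ± 223, 956 ± 94.1 and 960 ± 66.6 CPM).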

How the data were processed

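Libraries were prepared from RNAzol-extracted RNA with NEBNext Ultra II, a stranded kit for mRNA, per the labels' protocols. The authors deposited estimated counts per gene from kallisto 0.46.1, with mm10 as the genome build, per the submitters' processing notes. Not given in the sources used here are the annotation of transcripts, how these were summed to genes, and whether strand was used in counting.

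Estimated counts were rounded before testing, since 25.6% to 27.5% of values were not whole. Gene IDs were matched to GENCODE M21 on GRCm38 (46005 matched, 512 not). In R 4.3.3, edgeR 4.0.16 was run with filterByExpr, TMM scaling and a robust quasi-likelihood fit of all 9 libraries, which left 6 residual degrees of freedom, with Benjamini-Hochberg adjustment over 14059 genes. The script was tested on simulated data. Alternatives were RLE scaling, no filter, a filter at 1 CPM in 3 libraries, DESeq2 1.42.0, the 2 compared subsets alone, libraries 1 and 2 alone, each library left out, and the library number as a block. Promoter windows came from RefSeq (GRCm38.p6).

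Called members were given per library for the 14 with the highest mean CPM. The lists of partners, of ADAM protease and Notch genes and of vesicle formation had the same rule for naming genes. From each, up to 3 called genes with the largest change and no overlap were named, and the most abundant. Adam10, Adam17, Rhbdf2 and Notch1 were named outside this rule. From each list of another cell type the most abundant was named, and further genes were named from the stromal, granulocyte and platelet lists. Members and lists were chosen with earlier results of these data known. The depth, 18455116 to 29985684 estimated counts per library, limits precision at low levels, and intervals and floors cover counting error only. Same-numbered libraries of intMo and pMo deviated together from their subset means (correlations of 0.588, 0.3 and 0.274 for numbers 0, 1 and 2). Those of cMo with intMo or pMo did not all do so (-0.143 to 0.23). Each mean is over only 3 libraries, so a library 0 that stands apart in both subsets also raises the correlations of numbers 1 and 2. The correlations therefore cannot show whether the number pairs the libraries, and the labels do not state a pairing. The fit with the number as a block is given only as an alternative.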

Additional observations from a re-analysis of the deposited data

How the results depend on the processing

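Of 32 calls of single members, 25 were kept under every alternative that tested them, 7 were lost under at least 1 (4 of them only on leaving out 1 library) and 0 reversed. With libraries 1 and 2 alone, 30 of the 32 were made, and the others were not tested in that fit rather than lost. Of 34 changes not called, 12 were called under some alternative. The cause of each difference was not tested. With libraries 1 and 2 alone, 5 members were called lower in intMo against cMo, and 7 higher and 3 lower in pMo against intMo. Of all genes, 27.8% and 17.1% were called in these comparisons under that setting. The 5 included Tspan12, which was not tested with all 9 libraries. In libraries 1 and 2 it had 0.95 and 0.58 CPM in cMo and 0.21 and 0.13 CPM in intMo. Without the filter 1 member was called higher in pMo against intMo, and by DESeq2 3 were called lower. Leaving out 1 library gave 9 to 11 members higher and 3 to 4 lower in intMo against cMo, 1 to 4 higher and 0 to 2 lower in pMo against intMo, 11 to 13 higher and 1 to 4 lower in pMo against cMo, and 14 to 16 in the F test. Whether the library numbers pair the subsets is not known, and 4 of 9 libraries correlated best with their own number. With the replicate block, 12 members were higher and 3 lower in intMo against cMo, 2 higher and 2 lower in pMo against intMo, 14 higher and 3 lower in pMo against cMo, and 17 were called in the F test. In pMo against intMo this block changed the call of Tspan4 and of no other member. Against cMo the block added calls for Tspan3 in intMo (edgeR adjusted p = 0.0403) and for Tspan4 and Tspan18 in pMo (0.00536 and 0.0421). Over all genes, 701 were called in pMo against intMo, but 1417 by DESeq2, 2424 with libraries 1 and 2 alone and 221 to 1107 on leaving out 1 library, and 3433 in intMo against cMo became 2213 when only these subsets were fitted. Changes that reversed were not called in either setting. In intMo against cMo, Cd151 had a log2 change of -0.17 with libraries 1 and 2 alone and between -0.0898 (without intMo 0) and 0.235 on leaving out 1 library. The ranges on leaving out 1 library were -0.331 to 0.0865 for Tspan18 (above 0 without cMo 1 or cMo 2) and -0.211 to 0.0309 for Tspan31 (above 0 without cMo 2), and in pMo against intMo -0.585 to 0.0627 for Tspan6 (above 0 without intMo 0 or intMo 1). Depth limits Tspan6, Tspan9 and the 5 members not tested.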
